A study of Homo sapiens with 25 samples.

Results

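The NKX2-1 binding sites of the lung adenocarcinoma lines NCI-H358 and NCI-H441 were compared. Every NKX2-1 peak on chromosomes 1 to 22 and X in the lists of these lines was taken, which gave 75747 peaks in NCI-H358 and 90578 in NCI-H441, or 166325 of the 1257083 peaks in the 20 lists of the series. A peak was called common when it shared at least 1 bp with a peak of the other line, and specific to its line when it did not. The series applied chromatin immunoprecipitation and sequencing (ChIP-seq) to naive cells of 4 human lung adenocarcinoma lines, NCI-H358, NCI-H441, NCI-H2087 and HCC364. All were grown in the same serum-containing medium and carried no treatment or introduced gene, and the labels name the same NKX2-1 antibody and lot for each line. NKX2-1 was profiled together with acetylated histone H3 lysine 27 (H3K27ac), found at active promoters and enhancers, and monomethylated histone H3 lysine 4 (H3K4me1), found at enhancers. Each line and antibody has 1 library, so a line stands for itself and no difference between the lines could be tested. Each 95% interval is a Clopper-Pearson (exact binomial) one and covers only the counting error.

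NKX2-1, also called TTF-1, is a homeodomain transcription factor that directs the development of the lung and thyroid and, in the adult lung, switches on surfactant genes in alveolar type 2 cells. Its homeodomain binds DNA around a CAAG core, and it occupies both promoters and distal enhancers. In lung adenocarcinoma it is a marker of alveolar lineage, and its gene is amplified in a subset of tumours. A peak is a stretch with more reads than the local background, and a missing peak does not show that the protein is absent.

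The 250 bases upstream of a start site are shown for 6 genes, because their promoter windows held an NKX2-1 peak in NCI-H441 alone (SFTPA1, SFTPA2 and SFTPB, which encode surfactant proteins), in NCI-H358 alone (SOX5, a transcription factor of the SoxD group, and SMAD6, an inhibitor of BMP signalling) or in both lines (NKX2-1 itself). The sequences are RefSeq reference sequence of build GRCh38.p14, 5′ to 3′ along the strand of the gene. They lie at chr10:79610689-79610938 on the plus strand (SFTPA1), chr10:79560408-79560657 on the minus strand (SFTPA2), chr2:85668742-85668991 on the minus strand (SFTPB), chr12:24562492-24562741 on the minus strand (SOX5), chr15:66701986-66702235 on the plus strand (SMAD6) and chr14:36520233-36520482 on the minus strand (NKX2-1). Capitals mark CAAG and its reverse complement CTTG.
SFTPA1: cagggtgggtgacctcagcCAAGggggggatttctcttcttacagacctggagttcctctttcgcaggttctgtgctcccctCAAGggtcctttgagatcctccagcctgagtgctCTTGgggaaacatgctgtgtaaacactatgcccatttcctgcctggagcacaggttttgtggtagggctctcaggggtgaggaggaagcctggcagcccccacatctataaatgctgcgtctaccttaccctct
SFTPA2: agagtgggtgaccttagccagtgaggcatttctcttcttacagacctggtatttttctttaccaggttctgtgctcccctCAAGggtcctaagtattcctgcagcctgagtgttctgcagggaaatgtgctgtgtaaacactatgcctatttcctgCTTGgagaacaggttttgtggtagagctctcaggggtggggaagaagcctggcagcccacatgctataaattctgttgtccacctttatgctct
SFTPB: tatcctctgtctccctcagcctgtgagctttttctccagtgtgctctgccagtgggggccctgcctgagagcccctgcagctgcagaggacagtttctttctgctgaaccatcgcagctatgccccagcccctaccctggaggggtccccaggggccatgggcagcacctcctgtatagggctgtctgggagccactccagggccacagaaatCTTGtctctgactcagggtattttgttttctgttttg
SOX5: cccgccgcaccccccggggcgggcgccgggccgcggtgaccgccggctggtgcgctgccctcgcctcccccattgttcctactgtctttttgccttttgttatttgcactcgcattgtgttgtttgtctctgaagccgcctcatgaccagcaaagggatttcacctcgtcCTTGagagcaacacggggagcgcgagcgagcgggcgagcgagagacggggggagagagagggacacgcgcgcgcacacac
SMAD6: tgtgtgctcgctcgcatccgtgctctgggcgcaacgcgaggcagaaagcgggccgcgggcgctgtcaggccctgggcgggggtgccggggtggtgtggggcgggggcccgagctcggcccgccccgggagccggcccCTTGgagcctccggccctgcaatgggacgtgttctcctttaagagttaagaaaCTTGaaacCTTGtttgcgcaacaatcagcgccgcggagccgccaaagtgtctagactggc
NKX2-1: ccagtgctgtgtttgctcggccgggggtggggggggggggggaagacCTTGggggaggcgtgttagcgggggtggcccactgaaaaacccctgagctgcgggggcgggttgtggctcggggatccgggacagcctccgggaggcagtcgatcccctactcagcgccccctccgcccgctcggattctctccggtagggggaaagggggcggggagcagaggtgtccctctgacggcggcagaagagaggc
The core occurred 3 times upstream of SFTPA1, 2 times upstream of SFTPA2, 1 time upstream of SFTPB, 1 time upstream of SOX5, 3 times upstream of SMAD6 and 1 time upstream of NKX2-1. CAAG was found on either strand in 78.8% of the 22132 upstream windows of this length in the RefSeq promoter table, with a median of 1 match, so its presence does not set these windows apart. Peak summits fell within the printed bases only for SFTPA1, at −154 bp from the start, and SFTPA2, at −139 bp. They lay downstream of the start used for SFTPB (440 bp), SOX5 (270 bp) and SMAD6 (34 bp). For NKX2-1 they lay 535 bp downstream in NCI-H358 and 697 bp in NCI-H441. The SFTPB summit was at −102 bp from another start site of that gene, whose upstream bases are not shown. The upstream sequences of SFTPA1 and SFTPA2 aligned with 213 identical bases over 254 columns (83.9%). SFTPA1 and SFTPA2 are paralogs, and the sources used here do not say how reads that fit both were placed.

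NKX2-1 occupied a large shared set of sites and a sizeable set in each line alone. Of the NCI-H358 peaks, 52269 were common (69.0%, interval 68.7% to 69.3%) and 23478 were specific. Of the NCI-H441 peaks, 51968 were common (57.4%, interval 57.1% to 57.7%) and 38610 were specific. Merging both lists gave 113472 regions, of which 51384 (45.3%) were bound in both lines, and 28.7 Mb of the 70.7 Mb covered by either list were shared. The genome-wide background of the libraries, a measure of relative depth solved from the deposited fold and p, was similar at 2.72 reads in NCI-H358 and 2.85 in NCI-H441. At the limit between the classes, 39 NCI-H358-specific and 37 NCI-H441-specific peaks had a peak of the other line within 100 bp, while 28 and 25 common peaks overlapped by less than 50 bp. Within 1 kb of a peak of the other line lay 3090 (13.2%) of the NCI-H358-specific and 2981 (7.72%) of the NCI-H441-specific peaks. When at least 50% of both peaks had to overlap, the common shares fell to 58.3% in NCI-H358 and 48.8% in NCI-H441. The median distance from a specific peak to the nearest peak of the other line was 9.05 kb in NCI-H358 and 10.5 kb in NCI-H441.

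Common sites were the wider and stronger ones in each list. Median width was 536 bp for common and 382 bp for specific peaks in NCI-H358, and 597 bp and 414 bp in NCI-H441. The authors' median fold over local background, read within each list only, was 8.94 at common and 6.01 at specific peaks of NCI-H358, and 11.2 and 7.36 in NCI-H441. The median −log10 q was 26.7 against 13.2 in NCI-H358 and 42.1 against 19.5 in NCI-H441. Across quartiles of −log10 q the common share rose from 46.1% in the weakest quartile to 90.3% in the strongest in NCI-H358, and from 35.9% to 79.6% in NCI-H441. The strongest quartile still held 1829 NCI-H358-specific and 4624 NCI-H441-specific peaks.

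The specific sites included a few of the highest peaks of each list. The NCI-H358-specific peak with the highest fold, 104, ranked 14th by fold in its list and lay at chr3:144259019-144259827, 267 kb from the nearest protein-coding gene end, that of DIPK2A. It overlapped NKX2-1 peaks of NCI-H2087 and HCC364 but no H3K27ac in NCI-H358 or NCI-H441. The NCI-H441-specific peak with the highest fold, 104, ranked 18th and lay at chr11:3338900-3339832, 18.1 kb from the gene end of ZNF195, a zinc-finger gene. It was also bound in NCI-H2087 and HCC364 and carried no H3K27ac in either line. The 5 NCI-H441-specific peaks with the highest fold, between 90.9 and 104, all lacked H3K27ac in NCI-H441 and were all bound in NCI-H2087. These peaks were picked by rank after the values were seen.

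Most sites of every class were distal, and common sites lay at gene ends more often. Distances were taken to whichever end of a protein-coding gene was nearer. In NCI-H358, 13.9% of common peaks (interval 13.6% to 14.2%) and 9.23% of specific peaks (8.87% to 9.61%) were within 1 kb of a gene end. In NCI-H441 the shares were 13.8% (13.5% to 14.1%) and 7.46% (7.20% to 7.72%). NCI-H358-specific peaks were also the most remote: 44.7% of them were over 50 kb from a gene end, against 32.9% of common peaks of that list, 34.4% of NCI-H441-specific peaks and 33.0% of common peaks of the NCI-H441 list. The median distance was 38.7 kb for NCI-H358-specific and 25.3 kb for NCI-H441-specific peaks, and 22.7 kb and 22.9 kb for the common peaks of each list.

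**Figure D1:**
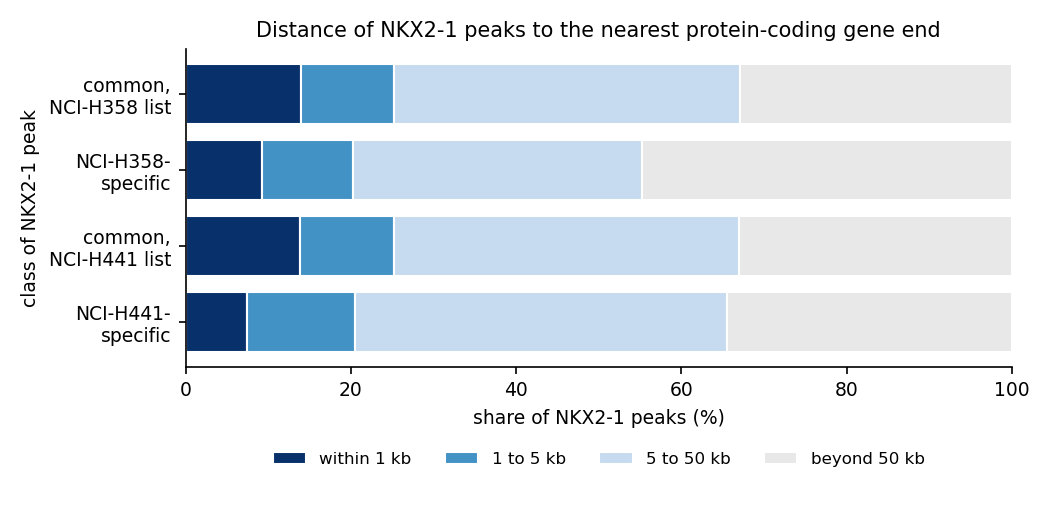
Share of NKX2-1 peaks (percent, horizontal axis) by distance to the nearest protein-coding gene end for each class of peak. The segment beyond 50 kb is 44.7% of NCI-H358-specific peaks and 34.4% of NCI-H441-specific peaks.

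H3K27ac and H3K4me1 followed the line in which NKX2-1 was bound. At NCI-H358-specific peaks H3K27ac was found at 37.5% in NCI-H358 and at 13.7% in NCI-H441, a difference of 23.9 percentage points. At NCI-H441-specific peaks it was found at 30.9% in NCI-H441 and at 11.4% in NCI-H358, a difference of 19.6 points. H3K4me1 was found at 62.0% of NCI-H358-specific peaks in NCI-H358 and 24.8% in NCI-H441, and at 62.6% of NCI-H441-specific peaks in NCI-H441 and 27.8% in NCI-H358. At the common peaks of the NCI-H358 list the lines were alike, with H3K27ac at 57.5% in each and H3K4me1 at 72.2% in NCI-H358 and 74.5% in NCI-H441. The mark lists of the lines were of similar length for H3K27ac, 47136 peaks in NCI-H358 and 47228 in NCI-H441, and of 113605 and 99062 peaks for H3K4me1.

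The unbound line rarely had acetylation that the bound line lacked. Among NCI-H358-specific peaks 24.7% were acetylated in NCI-H358 only, 12.8% in both lines, 0.856% in NCI-H441 only and 61.6% in neither. Among NCI-H441-specific peaks 20.9% were acetylated in NCI-H441 only, 10.1% in both, 1.30% in NCI-H358 only and 67.8% in neither. Specific sites with H3K4me1 but no H3K27ac in the bound line were more numerous than those with both marks, 35.4% against 26.6% in NCI-H358 and 36.2% against 26.4% in NCI-H441.

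**Figure D2:**
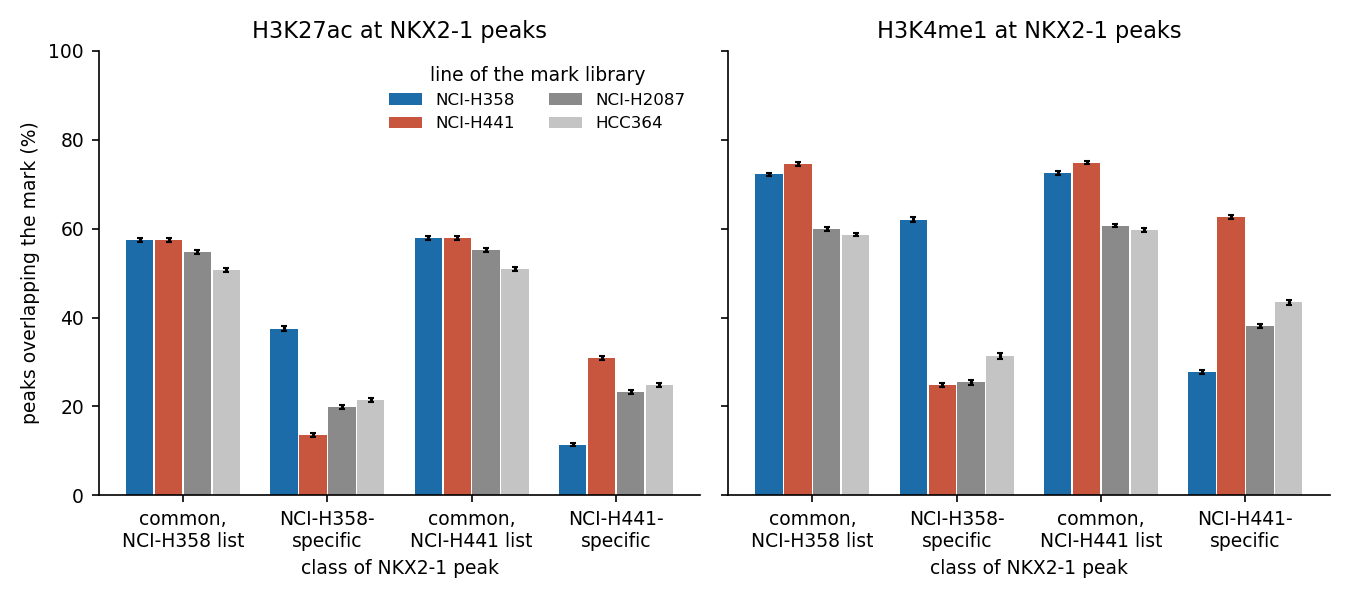
Percent of NKX2-1 peaks of each class (horizontal axis) that overlap H3K27ac (left) or H3K4me1 (right) in each of the 4 lines (bar colour), with exact 95% intervals as error bars. At specific peaks the bar of the bound line is the tallest, for H3K27ac 37.5% in NCI-H358 and 30.9% in NCI-H441, whereas the bars of these lines are level at common peaks.

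The gap between the lines was present in every quartile of peak width and of −log10 q and for H3K27ac it grew toward the widest and the strongest peaks. In the widest quartile the H3K27ac share in the bound line exceeded that in the other by 55.7 percentage points at NCI-H358-specific and 57.2 points at NCI-H441-specific peaks. In the strongest −log10 q quartile H3K27ac was at 48.1% of NCI-H358-specific peaks in NCI-H358 and 4.16% in NCI-H441, and at 52.3% of NCI-H441-specific peaks in NCI-H441 and 5.00% in NCI-H358. In the weakest quartile the H3K27ac share in the bound line exceeded that in the other by 19.0 percentage points at NCI-H358-specific and 9.38 points at NCI-H441-specific peaks. Overlap with a mark also grew with the width of the NKX2-1 peak: at NCI-H358-specific peaks H3K27ac in NCI-H358 rose from 25.3% in the narrowest quartile to 74.0% in the widest. In the narrowest quartile common peaks were acetylated in NCI-H358 little more often, at 28.0%. Within 1 kb of a gene end the unbound line was often acetylated as well, with 73.1% against 55.3% at NCI-H358-specific and 65.0% against 47.8% at NCI-H441-specific peaks. H3K4me1 at NCI-H358-specific peaks within 1 kb was at 33.9% in NCI-H358 and 36.4% in NCI-H441, the reverse of its order in every other distance class, width quartile and −log10 q quartile. Beyond 50 kb the H3K27ac shares were 28.3% against 5.12% and 24.4% against 5.97%.

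NKX2-1 peaks of the other 2 lines fell on NCI-H441-specific sites more often than on NCI-H358-specific ones. NCI-H2087 bound 40.5% of NCI-H441-specific and 22.6% of NCI-H358-specific peaks, and HCC364 bound 42.7% and 32.2%. Neither line bound 39.5% of NCI-H441-specific and 56.5% of NCI-H358-specific peaks, against 9.35% of common peaks of the NCI-H358 list. H3K27ac gave the same order with a smaller gap: in NCI-H2087 it lay on 23.2% of NCI-H441-specific and 19.8% of NCI-H358-specific peaks, and in HCC364 on 24.9% and 21.4%.

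Factors profiled only in NCI-H2087 lay on common sites more often than on specific ones, to very different degrees. The forkhead pioneer factor FOXA1 lay on 50.9% of common peaks of the NCI-H358 list, 17.4% of NCI-H358-specific and 24.2% of NCI-H441-specific peaks. Its relative FOXA2 gave 54.1%, 21.3% and 28.1%, and the AP-1 subunit c-Jun gave 32.2%, 3.16% and 9.34%. SOX2, a foregut transcription factor, lay on 10.9%, 1.69% and 3.42%, and the acetyltransferase EP300 on 11.6%, 0.852% and 1.63%. The order of the specific classes was the opposite for the promoter mark H3K4me3, at 20.9% of common, 14.4% of NCI-H358-specific and 7.89% of NCI-H441-specific peaks, and for RNA polymerase II at 27.2%, 10.1% and 8.95%. The insulator protein CTCF, at 22.99%, 18.9% and 13.4%, differed least between common and NCI-H358-specific peaks, as a ratio, among these 8 libraries. These libraries come from another line and show where its factors lie, not their binding in NCI-H358 or NCI-H441.

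Around genes the difference ran mainly toward NCI-H441. NKX2-1 peaks within 50 kb of either gene end were counted for 19974 protein-coding genes, of which 18959 had a peak in either line. A gene leaned to a line when it had at least 5 more peaks there and the ratio of counts, with 1 added to each, was at least 2. Of the 18959 genes 197 (1.04%) leaned to NCI-H358 and 1678 (8.85%) leaned to NCI-H441. The NCI-H441 list is longer, and with it held to its 75747 strongest peaks the counts were 428 and 788. The median gene had 5 peaks in NCI-H358 and 7 in NCI-H441. Neighbouring genes share peaks and are not independent.

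**Figure D3:**
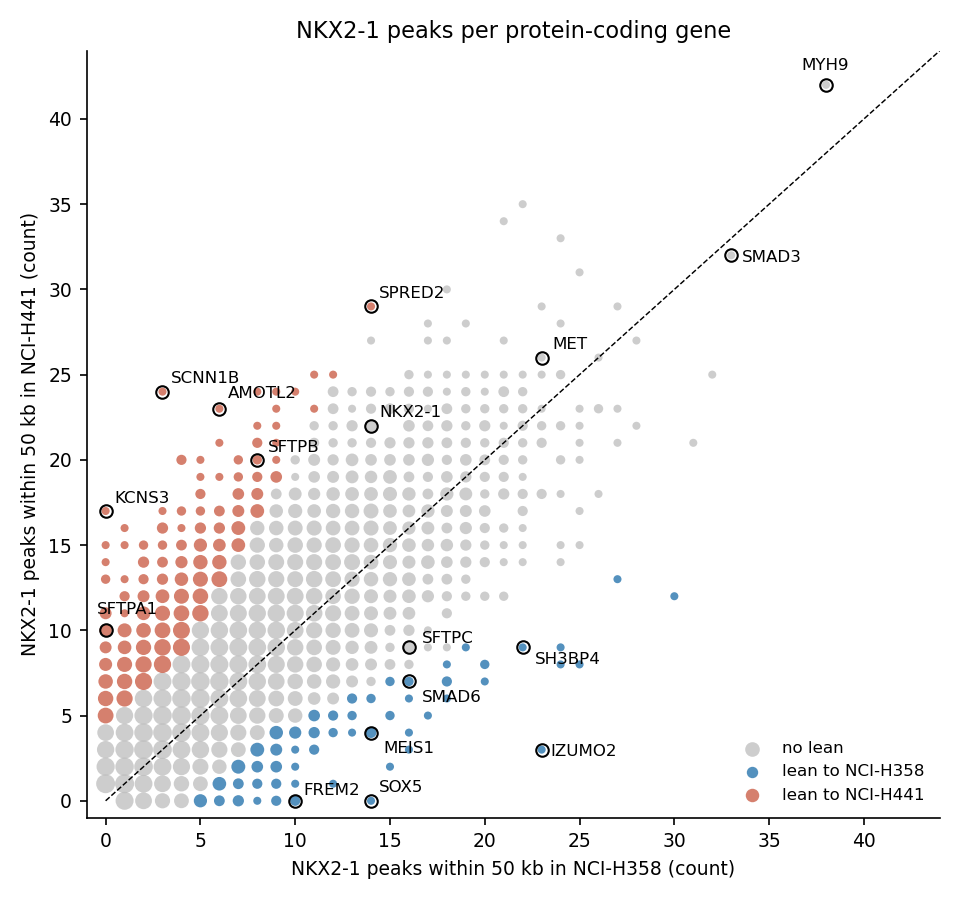
Number of NKX2-1 peaks within 50 kb of each protein-coding gene in NCI-H358 (horizontal axis) and NCI-H441 (vertical axis), with larger dots where more genes coincide, colour for genes that lean to a line and a dashed line of equality. KCNS3 and SFTPA1 lie on the vertical axis with 17 and 10 NCI-H441 peaks, and SOX5 and FREM2 on the horizontal axis with 14 and 10 NCI-H358 peaks.

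Histone marks, which the lean did not use, moved with it. Around the 197 genes that leaned to NCI-H358 the median number of H3K27ac peaks was 5 in NCI-H358 and 2 in NCI-H441, and 162 of them had more in NCI-H358 against 15 with more in NCI-H441. Around the 1678 genes that leaned to NCI-H441 the medians were 3 and 5, and 1293 had more in NCI-H441 against 135 with more in NCI-H358. Over all genes counted, 32.5% had more H3K27ac peaks in NCI-H358 and 39.7% more in NCI-H441. For H3K4me1, 189 of the 197 genes had more peaks in NCI-H358 and 1450 of the 1678 had more in NCI-H441. Over all genes counted these shares were 41.0% and 45.1%. At start sites, H3K27ac within 1 kb in NCI-H358 alone was found for 30 of 147 genes that leaned to NCI-H358 (20.4%, interval 14.2% to 27.8%), against 4.34% of all genes with a start site in the promoter table. H3K27ac in NCI-H441 alone was found for 128 of 1351 genes that leaned to NCI-H441 (9.47%, interval 7.97% to 11.2%), against 3.35% of all.

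Among the genes that led the lean to NCI-H358, SOX5 had 14 NKX2-1 peaks in NCI-H358 and 0 in NCI-H441. Of these, 12 carried H3K4me1 and 3 carried H3K27ac in NCI-H358, and 0 carried either mark in NCI-H441. FREM2, which encodes a basement-membrane protein, had 10 peaks against 0, of which 6 carried H3K4me1 and 1 carried H3K27ac in NCI-H358. MEIS1, a homeobox gene of the TALE class, had 14 against 4, with a run of 8 specific peaks at chr2:66531166-66608041. Its start was bound and acetylated in both lines.

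SMAD6 had 16 peaks in NCI-H358 and 7 in NCI-H441, and its promoter was bound and acetylated in NCI-H358 only. AMOTL1, an angiomotin-family scaffold of the Hippo pathway, had 15 and 5, with H3K27ac at its start in NCI-H358 only. SLCO3A1, an organic anion transporter, had 14 and 4, and 7 of its 10 specific peaks were acetylated in NCI-H358 against 0 in NCI-H441. SH3BP4, an endocytic adaptor, had 22 and 9. Other leading genes were SHLD1, a DNA repair factor of the shieldin complex (19 and 9), and the sperm-protein gene BSPH1 (17 and 5). Of the 12 NCI-H358-specific peaks around BSPH1, 0 carried H3K27ac and 1 carried H3K4me1 in NCI-H358. Also leading were the uncharacterised LOC124902897, with 16 and 3, and IZUMO2.

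IZUMO2, a sperm-egg fusion family gene, with 23 peaks in NCI-H358 and 3 in NCI-H441, led through an array of small repeated RNA genes. The run near it held 22 specific peaks within 42.1 kb over 10 SNAR genes. Without the peaks of this run the NCI-H358 count was 7, and IZUMO2 did not lean. The median local background of the peaks in the run was 2.00 times the median of the NCI-H358 library. The copies of such an array are near-identical, so the number of reads placed there is uncertain.

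Among the genes that led the lean to NCI-H441, KCNS3, a modulatory potassium channel subunit, had 17 NKX2-1 peaks in NCI-H441 and 0 in NCI-H358. Of these, 15 carried H3K4me1 and 9 carried H3K27ac in NCI-H441, whereas in NCI-H358 1 carried H3K4me1 and 0 carried H3K27ac. SCNN1B, the beta subunit of the epithelial sodium channel that clears airway and alveolar fluid, had 24 against 3. Of its 21 specific peaks, 11 were acetylated in NCI-H441 and 0 in NCI-H358, and 14 were bound in NCI-H2087. ATP10A, a lipid flippase, and ST3GAL1, a sialyltransferase, had 15 against 2 each.

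AMOTL2, the angiomotin-family relative of AMOTL1, had 23 peaks in NCI-H441 against 6 in NCI-H358, the reverse of AMOTL1. SPRED2, an inhibitor of RAS to MAPK signalling, had 29 against 14, and NRIP1, a nuclear receptor corepressor, 21 against 9, with 12 of its 14 specific peaks acetylated in NCI-H441 and 0 in NCI-H358. The kinase gene IKBKB of the NF-kappaB pathway had 21 against 6, and the ubiquitin-conjugating enzyme gene UBE2H 21 against 8. MDFIC had 19 against 7, SVIL, an actin-binding protein gene, 18 against 8, and CLPB, a mitochondrial chaperone gene, 17 against 4. MDFIC differed in its marks: 1 of its 12 specific peaks was acetylated in NCI-H441, while 11 carried H3K4me1 there and 8 carried it in NCI-H358 too.

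The genes with the most common peaks leaned to neither line. Their choice made a lean unlikely, because many common peaks keep the ratio of counts low. MYH9, a non-muscle myosin heavy chain, had 38 peaks in NCI-H358 and 42 in NCI-H441. SMAD3, a transducer of TGF-beta signalling, had 33 and 32, and MET, the receptor for hepatocyte growth factor, had 23 and 26, of which 22 in each list were common. The EGFR inhibitor gene ERRFI1 and the receptor gene ADGRF1 each had 21 and 24, the endothelin-converting enzyme gene ECE1 22 and 24, the growth factor gene PDGFC 31 and 21, and the phospholipase gene PLB1 27 and 23.

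The surfactant genes held some of the clearest differences. SFTPA1 had 10 peaks in NCI-H441 and 0 in NCI-H358, and the neighbouring SFTPA2 had 9 and 0. Of the 10 peaks around SFTPA1, 7 carried H3K27ac and 9 carried H3K4me1 in NCI-H441, and 0 carried either in NCI-H358. The peak over the SFTPA1 start had a fold of 32.6 with its summit at −154 bp from the start, and that over the SFTPA2 start a fold of 26.0 with its summit at −139 bp. SFTPB had 20 peaks in NCI-H441 and 8 in NCI-H358, and all 8 were common. Its promoter peak, with a fold of 19.9, was present in NCI-H441 only, and H3K27ac lay at that promoter in NCI-H441 only. In NCI-H358 the SFTPB peaks were all distal, the strongest with a fold of 47.4.

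SFTPC went the other way, with 16 peaks in NCI-H358 and 9 in NCI-H441, short of a lean. Only 1 of these NCI-H358 peaks and 0 of the NCI-H441 peaks had SFTPC as the nearest gene. Of its 8 NCI-H358-specific peaks, 8 carried H3K4me1 in NCI-H358 and 2 in NCI-H441, and 3 carried H3K27ac in NCI-H358 and 1 in NCI-H441. H3K27ac peaks around SFTPC did not follow the NKX2-1 count, with 10 in NCI-H358 and 12 in NCI-H441. SFTPD had 3 peaks in NCI-H358 and 6 in NCI-H441, with a peak of fold 18.4 at its promoter in NCI-H441 only. That promoter carried no H3K27ac in either line, and 0 of the 4 NCI-H441-specific peaks around SFTPD were acetylated in NCI-H441. NAPSA, the aspartic protease that processes surfactant protein B, had 9 and 12, and of its start sites the outer one was bound in both lines and the inner one in NCI-H441 only. Local background around SFTPA1 was 0.730 of the library median in NCI-H358, the lowest level the caller wrote for that library, and 0.770 in NCI-H441.

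**Figure D4:**
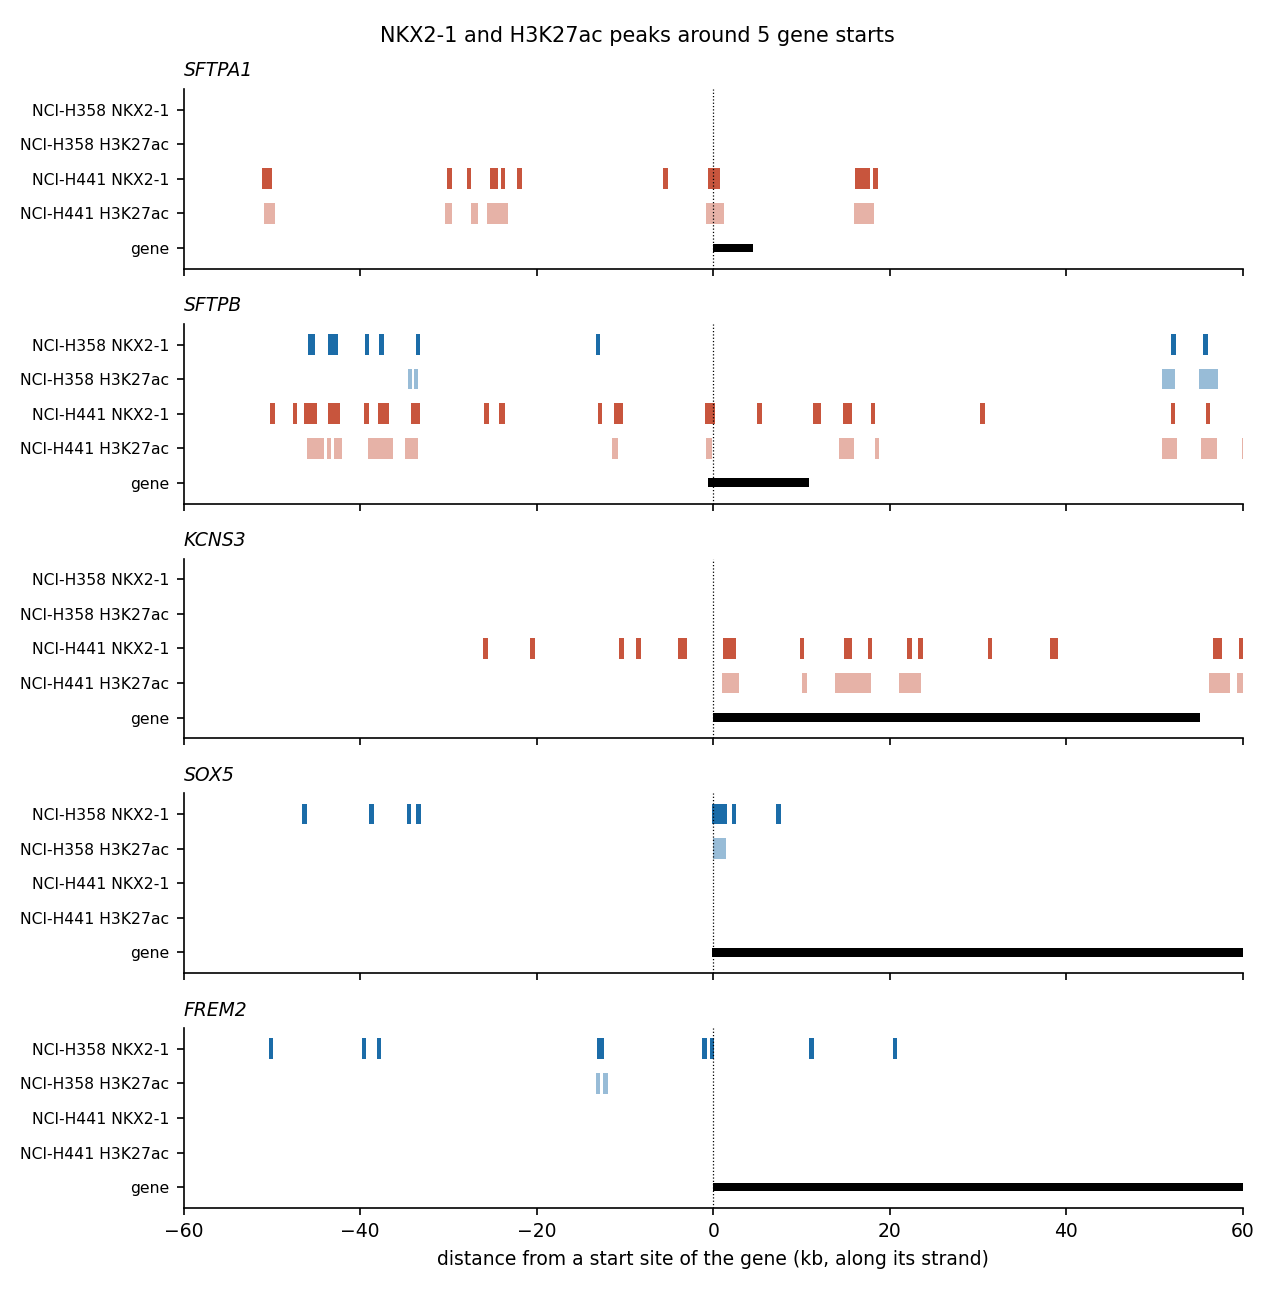
NKX2-1 and H3K27ac peaks of NCI-H358 (blue) and NCI-H441 (red) within 60 kb of a start site of SFTPA1, SFTPB, KCNS3, SOX5 and FREM2, by distance along the strand of the gene (kb, horizontal axis), with the gene as a black bar. SFTPA1 and KCNS3 have no NCI-H358 peak of either kind in the window, SOX5 and FREM2 have no NCI-H441 peak, and SFTPB has NCI-H358 peaks only away from its start.

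In lists of marker and pathway genes, chosen with earlier results of these data known, leaning members all leaned to NCI-H441. Of 15 surfactant and alveolar type 2 genes 5 leaned to NCI-H441 and 0 to NCI-H358, against 8.85% and 1.04% of all genes. They were SFTPA1, SFTPA2, SFTPB, the lysosomal membrane gene LAMP3 (11 peaks against 5 in NCI-H358) and PGC, pepsinogen C (11 against 2). The median difference over the list was 3 peaks more in NCI-H441, against 1 over all genes and 4 over 10 housekeeping genes, of which 0 leaned. Of 10 basal and squamous genes 3 leaned to NCI-H441, the keratin genes KRT5 (9 against 1), KRT6A (11 against 2) and KRT14 (13 against 6). KRT5 and KRT6A are neighbours on chromosome 12 and share peaks, as do SFTPA1 and SFTPA2 on chromosome 10. The members of each pair are therefore not independent in these counts. Many of the peaks counted lay nearer to another gene. NCI-H441-specific peaks with the gene itself as the nearest numbered 7 for SFTPA1, 4 for SFTPB, 3 for SFTPA2 and 2 each for LAMP3 and PGC. They numbered 4 each for KRT5 and KRT6A and 0 for KRT14, so the leans of these lists depend on the 50 kb window.

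Single members leaned in 5 further lists, 5 of the 60 genes counted in them or 8.33%. These lists were set apart because 1 member leaned, so their share cannot be read against the 8.85% of all genes. The surfactant and the basal lists had the most leaning members of the 15 lists, so their shares cannot be read against it either. The leaning members were AQP5, the water channel of type 1 cells (11 against 4), the Iroquois homeobox gene IRX2 (7 against 0), EGFR, the epidermal growth factor receptor (13 against 6), the AP-1 gene JUND (13 against 4) and the macrophage receptor gene CSF1R (12 against 3). Of the 10 airway secretory, 8 ciliated, 14 epithelial keratin and junction, 16 gastric, intestinal and hepatic, 10 mesenchymal and 8 neuroendocrine genes and the 8 neighbours of NKX2-1 on chromosome 14 counted, 0 leaned to either line. LMO3, a LIM-domain gene reported as an NKX2-1 target in lung cancer, had 18 peaks in NCI-H441 and 5 in NCI-H358, and 12 of its 14 NCI-H441-specific peaks were acetylated in NCI-H441 against 1 in NCI-H358.

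The genes of the lung and foregut regulators NKX2-1, FOXA1, FOXA2, TP63, SOX2, SOX9 and HNF4A leaned to neither line. The NKX2-1 gene had 14 peaks in NCI-H358 and 22 in NCI-H441, beside a local background of 1.44 and 2.07 times the library median, whose part in the difference was not tested. FOXA1 had 14 and 17, and a peak of fold 12.7 touched its promoter window in NCI-H441 only. TP63, the basal-cell regulator, had 16 and 14, KRT7, a keratin of simple epithelia, 17 and 22, SOX9 8 and 7, SOX2 6 and 7, HNF4A 4 and 5, SCGB3A2, an airway secretory gene, 2 and 3, and FOXA2 1 and 2. Of the markers of lung adenocarcinoma, NAPSA and NKX2-1 carried H3K27ac at a start site in both lines, and SFTPA1, SFTPA2 and SFTPB in NCI-H441 only. SFTPD carried it in neither line.

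Promoter binding was compared over 22132 windows of 300 bp, from 250 bp before to 50 bp after each start site, for 15812 genes in the RefSeq promoter table. NKX2-1 touched 5473 windows in both lines, 794 in NCI-H358 only and 1746 in NCI-H441 only. Promoters bound in NCI-H358 only carried H3K27ac at 76.6% in NCI-H358 and 48.9% in NCI-H441. Promoters bound in NCI-H441 only carried it at 85.1% in NCI-H441 and 75.8% in NCI-H358. Of the 12 alveolar type 2 genes with a window, 5 had one bound in NCI-H441 only, 2 had one bound in both lines and 0 had one bound in NCI-H358 only. Over all 15812 genes the shares were 9.79% with a window bound in NCI-H441 only, 28.9% in both lines and 4.56% in NCI-H358 only. The 5 alveolar genes were SFTPA1, SFTPA2, SFTPB, SFTPD and NAPSA, and NAPSA counts also among those bound in both through its other start site.

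Sequence differed modestly between the promoter classes. Motifs were searched on both strands without a mismatch. The forkhead motif TGTTTNC was found in 19.4% of windows bound in NCI-H358 only (interval 16.7% to 22.3%), 13.2% of those bound in NCI-H441 only (11.7% to 14.9%), 14.6% of those bound in both and 15.3% of all windows. The NKX2-1 motif CAAGTG was found in 10.3%, 8.25%, 9.87% and 10.4%, and the AP-1 motif TGANTCA in 6.30%, 6.82%, 6.80% and 6.15%. The TEAD motif CATTCC was found in 12.0%, 12.1%, 12.2% and 12.2%. Median GC content was 60.2% in windows bound in NCI-H358 only and 65.3% in those bound in NCI-H441 only, and the median number of CpG dinucleotides was 18 and 26, against 62.3% and 21 over all windows. The part of GC content in the forkhead shares was not tested.

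Specific peaks also came in runs, unbroken by a peak of the other line and with gaps of at most 20 kb. In NCI-H441 24.0% of specific peaks lay in 2448 runs of at least 3 peaks, and in NCI-H358 13.4% lay in 890 such runs. The 2 longest NCI-H441 runs, with 63 peaks at chr20:29910738-30038171 and 22 peaks at chr20:30088505-30159447, held no gene of the RefSeq table, and the nearest protein-coding gene was 775 kb and 654 kb away. Of the 63 peaks 37 were acetylated in NCI-H441 and 0 in NCI-H358, while 0 were bound in NCI-H2087 and 1 in HCC364. Of the 22 peaks 1 was bound in NCI-H2087 and 0 in HCC364. Local background at the 63 peaks had a median of 1.03 and a maximum of 9.08 times the library median. At the 22 peaks these values were 0.738 and 1. The part of read placement in these 2 runs was not tested. The next runs covered named genes. A run of 16 at chr15:60006358-60128337 spanned FOXB1, a forkhead gene, with 11 peaks acetylated in NCI-H441, 0 in NCI-H358 and 13 bound in NCI-H2087. A run of 16 covered KCNS3, and 13 peaks at chr10:112344367-112406153 covered ACSL5, an acyl-CoA synthetase gene, with 10 acetylated in NCI-H441 and 0 in NCI-H358. The aldo-keto reductase genes AKR1B10 and AKR1B15 shared a run of 13, the interleukin receptor genes IL1RL1 and IL18R1 a run of 12, and PRR5L held 12.

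In NCI-H358, after the SNAR array, the longest run was 21 peaks over 180 kb at chr2:5021138-5201419, where 16 were acetylated in NCI-H358 and 0 in NCI-H441. No gene of the table lay in it, and the nearest protein-coding gene, SOX11, was 491 kb away. Local background at the 21 peaks had a median of 1.26 and a maximum of 8.82 times the library median. The part of read placement in this run was not tested. A run of 14 at chr1:228611103-228627149 lay over 7 genes of the RNA5S array, whose copies are near-identical. There 9 peaks were acetylated in NCI-H358 and 6 in NCI-H441, and local background was 2.05 times the library median. A run of 13 at chr19:36270326-36308514 lay over the non-coding gene CYKILR, with all 13 acetylated in NCI-H358, 0 in NCI-H441 and 0 bound in NCI-H2087 or HCC364. Without that run the neighbouring zinc-finger gene ZNF565 had 7 NCI-H358 peaks in place of 18, equal to its 7 in NCI-H441. Runs of 8 covered MEIS1, GRIP1, a synaptic scaffold gene, and ADAMTS1, a secreted protease gene, and a further 8 lay at chr21:10340142-10416361 over BAGE2 and VN1R7P, where local background was 2.94 times the library median.

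The balance of peaks varied by chromosome and moved with the local background of the NKX2-1 libraries, which can rise with the number of DNA copies. This background was solved at called NKX2-1 peaks, and the sources used here do not say whether input reads set it. Whether it is independent of the number of peaks was not tested. NCI-H441 had fewer peaks than NCI-H358 on chromosomes 4 (5060 against 5481), 8 (4197 against 4244) and 9 (3424 against 3474), and its relative background was lower on each of them. It was also lower on 9 chromosomes where NCI-H441 had more peaks, among them chromosome 15, with the lowest log2 background ratio, −0.49, and 2601 peaks against 2351. Chromosomes 19 and X, also among them, sat at the lowest level the caller wrote in each library, so their ratio measures no difference in background. Over the 23 chromosomes the log2 ratio of peak numbers and the log2 ratio of background, NCI-H441 over NCI-H358, had a Pearson r of 0.63 and a Spearman rho of 0.76, given as a description of chromosomes that share 2 libraries. Chromosome 10 stood apart in its peak numbers, with 2146 in NCI-H358 and 3762 in NCI-H441. Its background was 0.730 of the library median in NCI-H358, the lowest level the caller wrote for that library, and 0.771 in NCI-H441. A lower NCI-H358 background on chromosome 10 could therefore not show. There 55.6% of NCI-H441 peaks were specific and 21.5% of genes leaned to NCI-H441, SFTPA1, SFTPA2 and SVIL among them, and 0 leaned to NCI-H358. Without chromosome 10 the r was 0.72 and the rho 0.79.

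**Figure D5:**
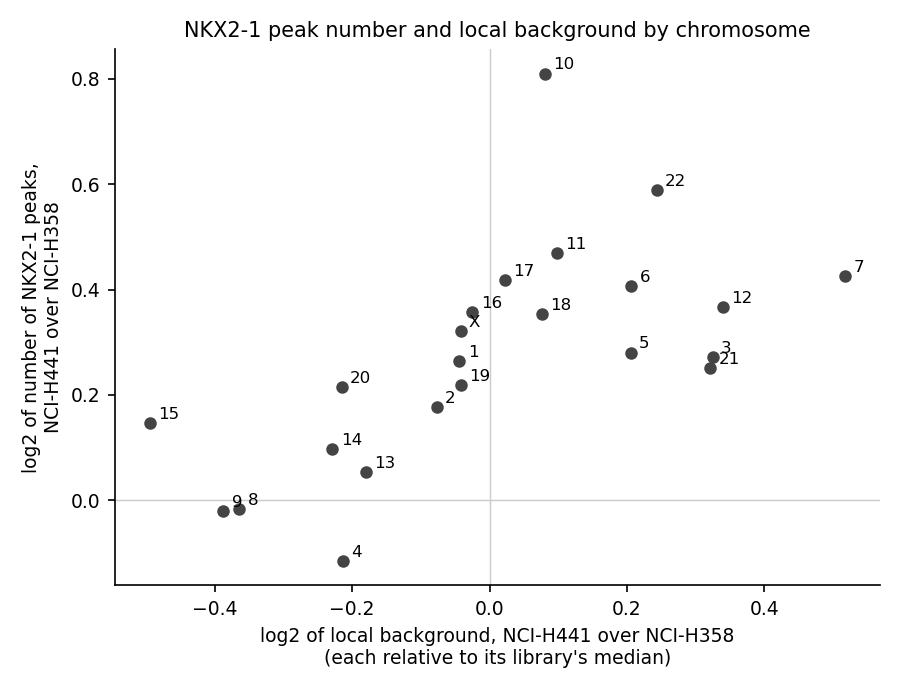
For each chromosome (numbered points), the log2 ratio of local background, each relative to its library's median (horizontal axis), and the log2 ratio of the number of NKX2-1 peaks (vertical axis), NCI-H441 over NCI-H358. Chromosomes 4, 8 and 9 lie below 0 on both axes, and chromosome 10 has the highest peak ratio, 0.81.

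The same held around genes. Median local background within 1 Mb, relative to the library median, for genes that leaned to NCI-H358 was 1.03 in that line and 0.769 in NCI-H441. It was 0.820 and 1.00 for genes that leaned to NCI-H441, and 0.882 and 0.969 for all. The part of copy number in the leans was not tested. For SOX5 the values were 2.22 and 1.46, for KCNS3 0.982 and 1.00, for SFTPB 1.01 and 1.00, and for SCNN1B 0.880 and 0.850. Some other genes that led the lean to NCI-H441 had a higher value there, with 0.786 and 1.69 for UBE2H and 1.13 and 1.85 for SPRED2. MDFIC had 0.924 and 1.63, CLPB 0.929 and 1.62, IKBKB 1.02 and 1.46, and NRIP1 0.860 and 1.17. The order was the reverse for ATP10A, with 1.21 and 0.769, and ST3GAL1, with 1.47 and 1.21.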

How the data were processed

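NKX2-1, H3K27ac and H3K4me1 libraries of 4 lung adenocarcinoma lines, and 8 further antibodies in NCI-H2087, were used through their 20 deposited peak lists; 5 input libraries were not analysed here. Groups come from the sample titles, with 1 library each. The submitters' processing notes name MACS2 (versions 2.1.1 and 2.2.7.1), bedtools, SAMtools 1.9, Bowtie2 2.2.9 and Trimmomatic 0.36, without their roles, and build hg38 (GRCh38). The authors deposited lists in narrowPeak format, called per library. Column 7 of the deposited lists is the fold over local background, a linear ratio, and columns 8 and 9 are −log10 p and −log10 q. The lowest −log10 q in each NKX2-1 list was just above 3. What enters a list depends on its depth, antibody and cut-off, and fold and q were compared only within a list.

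Peaks off chromosomes 1 to 22 and X (0.408% of the NCI-H358 and 0.214% of the NCI-H441 NKX2-1 list) were left out. Overlap required 1 bp. Pileup and local background were solved from fold and p for all peaks of both NKX2-1 lists within 0.01 of the written −log10 p. Gene positions are those of RefSeq on GRCh38.p14, which give ends without strand; start sites and strand come from the RefSeq promoter table. Named genes were, per line, the 12 leaning genes with the most specific peaks nearest to them, the 8 with the most common peaks, genes in the longest runs, leaning list members and a set list of lung genes. One gene that the rule names is not reported here. Members and lists were chosen with earlier results of these data known. Alternatives varied the overlap, q, list length, mark peaks, distances and gene assignment. Python 3.11.15 with numpy 2.4.6, pandas 2.3.3, scipy 1.17.1 and Biopython 1.88 was used. Functions were tested on simulated data.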

Additional observations from a re-analysis of the deposited data

How the results depend on the processing

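No comparison changed direction under any of 52 alternatives, of which 43 moved a value beyond its counting interval or a count by over 1.5 times. The causes were not tested. With a reciprocal overlap of 50%, the common shares were 58.3% (NCI-H358) and 48.8% (NCI-H441), the H3K27ac gaps at specific peaks 16.2 and 17.1 points, the H3K4me1 gaps 25.8 and 30.2 points, and the gene-end differences 1.82 and 4.15 points. With −log10 q of at least 10, the common shares were 71.4% and 54.8%, the H3K27ac gaps 25.5 and 20.4 points, the NCI-H358 H3K4me1 gap 39.1 points, the NCI-H441 gene-end difference 5.34 points, and 110 genes leaned to NCI-H358 against 1881 to NCI-H441. With the NCI-H441 list held to the length of the NCI-H358 list, the common shares were 62.6% and 62.0%, the H3K27ac gaps 22.1 and 23.1 points, the H3K4me1 gaps 32.2 and 40.1 points, the gene-end differences 2.24 and 7.09 points, and 428 and 788 genes leaned. When a mark had to cover the summit, the H3K27ac gaps were 18.1 and 13.6 points and the H3K4me1 gaps 30.3 and 26.5 points. With mark peaks of −log10 q of at least 10, they were 19.9 and 15.8 points, and 29.2 and 31.1 points. Within 5 kb of a gene end, the NCI-H441 difference was 4.80 points. With a 10 kb window, 23 genes leaned to NCI-H358 and 135 to NCI-H441, and with each peak at its nearest gene 103 and 550. Alternatives chosen after seeing the data were specific peaks with no peak of the other line within 1 kb (H3K4me1 gaps of 42.3 and 36.4 points, gene-end differences of 6.66 and 7.22 points) and start sites in place of gene ends (3.84 points in NCI-H358). No paired analysis was possible because each line and antibody has 1 library. With 1 library a line, differences between lines and differences between libraries cannot be told apart.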
